A study of Homo sapiens with 4 samples.

Results

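The core histone genes of the HIST clusters, 64 of the 18806 genes listed, were examined in Huh7 cells with and without a guide against METTL16. They are the genes whose symbol begins with HIST, a cluster number and H2A, H2B, H3 or H4, and they comprise 17 H2A, 18 H2B, 14 H3 and 15 H4 genes. The remaining 6 of the 70 HIST genes encode linker histones. The family was chosen by its TPM values, since its summed level was lower in METTL16 KO in these same 4 libraries, so its change between the groups is given as a description, with no test. Of the 64 genes, 63 were listed above 0 in at least 1 library, 58 had a mean of at least 1 TPM (a share of the library's transcripts, corrected for transcript length) and entered the fit over all genes, and 53 had a mean of at least 100 TPM. The 6 genes under 1 TPM were HIST1H2AA, HIST1H2BA, HIST1H4F, HIST1H4G, HIST1H4L and HIST3H3, of which HIST1H4G was at 0 in all 4 libraries.

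Huh7 is a cell line from a human hepatocellular carcinoma. A single clone of it that stably expressed Cas9 was infected with lentivirus carrying a guide RNA, and stable cells were selected with hygromycin. The 2 libraries of the control carried a non-targeting guide (sgNS, genotype WT in the labels), and the 2 libraries of METTL16 KO carried a guide against METTL16 (genotype METTL16 knockdown in the labels). All 4 libraries therefore share the Cas9 clone and the selection, and METTL16 KO rests on 1 clone and 1 guide. The labels name both Ribozero RNA and a kit for mRNA, which matters for histone transcripts because most of them end without a poly(A) tail.

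H2A, H2B, H3 and H4 proteins, each in a pair, form the core around which DNA is wrapped in a nucleosome. The replication-dependent genes sit in clusters of many near-identical copies, are transcribed in S phase at the histone locus body, carry no introns, and make mRNAs that end in a conserved stem-loop in place of a poly(A) tail. The stem-loop binding protein SLBP holds this hairpin during 3' end formation, translation and decay, so the supply of histone mRNA follows DNA synthesis. METTL16 is a methyltransferase that writes N6-methyladenosine on RNA.

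The METTL16 transcript had levels of 26.3 and 25.1 TPM in sgNS against 17.6 and 18.8 TPM in METTL16 KO, a difference of -0.50 on the log2 scale (SE 0.062, adjusted p = 2.43e-05, limma), so it was lower in both METTL16 KO libraries and was not absent from them. Every library summed to 1000000 TPM, and 11723 to 12074 genes reached 1 TPM. All 9 hepatocyte and hepatoma markers were above a mean of 1 TPM, and their sum was 16011 to 16159 TPM in sgNS and 29435 to 29863 TPM in METTL16 KO. Of 4 markers each, 1 leukocyte (CD68), 1 fibroblast (PDGFRB) and 1 endothelial marker (PECAM1) reached a mean of 1 TPM. The 4 leukocyte markers summed to 3.29 to 3.83 TPM in sgNS and 8.89 to 9.71 TPM in METTL16 KO, the fibroblast markers to 2.16 to 2.36 and 2.44 to 2.91 TPM, and the endothelial markers to 4.76 to 5.15 and 2.73 to 3.13 TPM, with KDR at 0 in all libraries. The part of these shifts in the histone values was not tested.

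The hairpin was found in all 59 core histone genes that have an entry in the RefSeq promoter table, which gives the transcription start. The letters GGNNCT, then any 4 bases, then AGNGCC were searched on the sense strand 300 to 800 bases after the start. The open letters are those at which the members differ. The pattern was thus set on these genes, and its presence in all of them is no independent finding. Where a gene had several starts, the one with the nearest match was used. The hairpin lay 366 to 549 bases from the start. The same letters occurred in 40 of 5740 other genes of chromosomes 1, 6 and 12 (0.697%). The sequences below are shown because they are the mark that the family shares and the one place where the classes differ in it. They are in GRCh38, on the strand of the gene, with the 6 bases of each arm and the 4 bases of the loop in capitals and 5 bases on each side.
HIST1H3B, chr6:26031592-26031617, minus strand: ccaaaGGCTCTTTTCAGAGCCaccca
HIST1H2BJ, chr6:27132316-27132341, minus strand: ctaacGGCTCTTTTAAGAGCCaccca
HIST1H4B, chr6:26026896-26026921, minus strand: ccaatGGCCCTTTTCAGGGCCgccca
HIST2H4A, chr1:149833027-149833052, plus strand: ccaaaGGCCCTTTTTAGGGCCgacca
HIST1H2AG, chr6:27133510-27133535, plus strand: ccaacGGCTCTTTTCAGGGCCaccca
HIST2H2AC, chr1:149887386-149887411, plus strand: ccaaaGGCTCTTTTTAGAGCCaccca

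The hairpin of HIST1H3B was the commonest form, with 33 genes (12 H2A, 12 H2B and 9 H3). The form of HIST1H4B was found in 8 genes, all H4, and that of HIST2H4A in 4, also all H4. The form of HIST1H2BJ was found in 8 genes, of which 5 were H2B, 2 H3 and 1 H2A. HIST1H2AG, HIST2H2AC and 4 other genes each had a form of their own. The H4 genes thus carried a stem with the arms GGCCCT and AGGGCC, while the H2A, H2B and H3 genes carried GGCTCT and AGAGCC, except for 1 base in HIST1H2AG and in HIST1H2AK.

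Upon METTL16 KO the summed level of the 64 core histone genes was about 37.1% lower. It was 100776 and 100594 TPM in sgNS and 62766 and 63831 TPM in METTL16 KO, so that core histone transcripts took 10.1% of the total of each sgNS library and 6.28% and 6.38% of those of METTL16 KO. The groups did not overlap, and the ratio of the means was -0.67 on the log2 scale. TPM divides by transcript length, so these short transcripts take a larger share of TPM than of reads. In bulk RNA, fewer cells in S phase and less histone mRNA per cell cannot be told apart.

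H2A summed to 27357 and 27386 TPM in sgNS and 17602 and 17718 TPM in METTL16 KO, a log2 ratio of -0.63. H2B summed to 18366 and 19190 TPM in sgNS and 12228 and 12556 TPM in METTL16 KO, a log2 ratio of -0.60. H3 summed to 22858 and 22362 TPM in sgNS and 13041 and 13411 TPM in METTL16 KO, a log2 ratio of -0.77. In all of these classes the METTL16 KO libraries lay under those of sgNS by far more than the spread between replicates. H4 was the most abundant class, with 32194 and 31656 TPM in sgNS and 19895 and 20147 TPM in METTL16 KO, a log2 ratio of -0.67, again without overlap. These sums are the firmest measure, since reads from near-identical copies cannot always be assigned to 1 gene. This differs between copies. Of the 50-base stretches of a member, a median of 98.4% were found in no other member, while 4 members had none of their own.

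**Figure D1:**
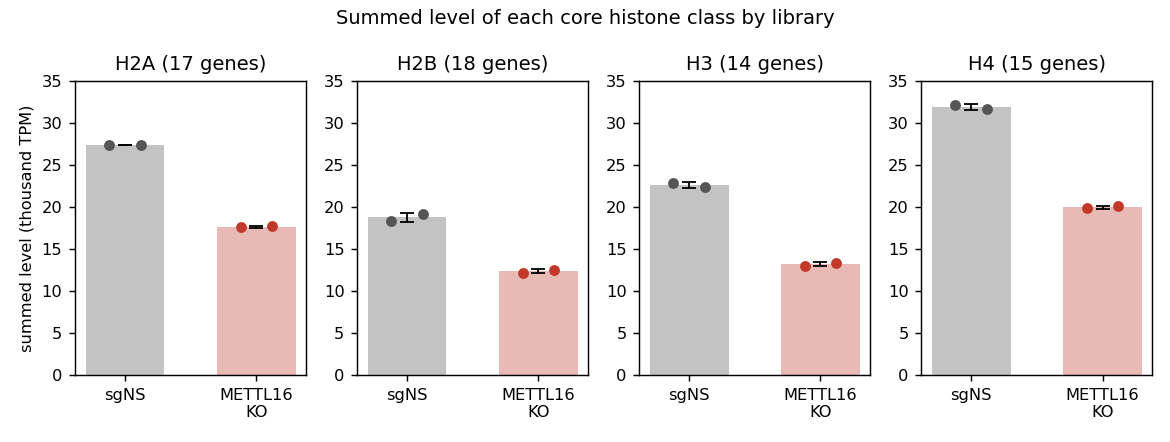
Summed TPM (vertical axis, from 0) of the H2A, H2B, H3 and H4 genes; points are the 2 libraries of each group, bars their mean and error bars the SD (n = 2). In each class both METTL16 KO points lie below both sgNS points, and H4 falls within 19895 to 20147 TPM in METTL16 KO against 31656 to 32194 TPM in sgNS.

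The balance between the classes shifted by much less than the sums. H3 and H4, which enter the nucleosome together as a tetramer, stood at a ratio of summed TPM of 0.710 and 0.706 in sgNS and of 0.655 and 0.666 in METTL16 KO, without overlap. H2A and H2B, which enter as dimers, stood at 1.49 and 1.43 in sgNS and at 1.44 and 1.41 in METTL16 KO, so that this ratio overlapped between the groups. The ratio of H4 to H2B was 1.75 and 1.65 in sgNS and 1.63 and 1.60 in METTL16 KO, without overlap. For this ratio the groups lay closer together than the sgNS libraries lay to each other. The share of H3 in the core histone sum was 22.7% and 22.2% in sgNS and 20.8% and 21.0% in METTL16 KO. The share of H2A was 27.1% and 27.2% in sgNS and 28.0% and 27.8% in METTL16 KO, and that of H2B 18.2% and 19.1% against 19.5% and 19.7%. The share of H4 was between 31.5% and 31.9% in all 4 libraries. H3 thus took a smaller share in METTL16 KO and H2A a larger one, each without overlap. The H2B share did not overlap either, but its groups lay closer together than its sgNS libraries lay to each other.

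The fit over all 11971 genes put 49 of the 58 tested members lower and 5 higher in METTL16 KO at a Benjamini-Hochberg adjusted p under 0.05 (limma), where 25.6% of all genes were lower and 50.1% higher. The thresholds of the study were a p under 0.01 before adjustment and a change of 1 or more on the log2 scale in either direction. With them 6 members were lower and 0 higher, where 3.75% of all genes were lower and 7.69% higher. After median-ratio scaling 13 members were lower at these thresholds, where 655 of the 11971 genes were lower and 670 higher. The METTL16 KO libraries were both below the sgNS libraries for 49 members and both above for 5, against 30.7% and 56.8% of all genes. The contrast chose the family, so nothing is read from these counts. The median log2 fold change of the 58 members was -0.67, beside 0.16 over all genes tested. All genes together were thus shifted upwards on the TPM scale, where 3065 were lower and 5999 higher at an adjusted p under 0.05. With median-ratio scaling, which took the median of all genes to -0.0016, 4375 were lower and 4359 higher, and the median of the members was -0.83. Among the 53 members of at least 100 TPM, the 2 replicates of a group differed by a median of 2.13% of their mean and by 11.9% at most.

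**Figure D2:**
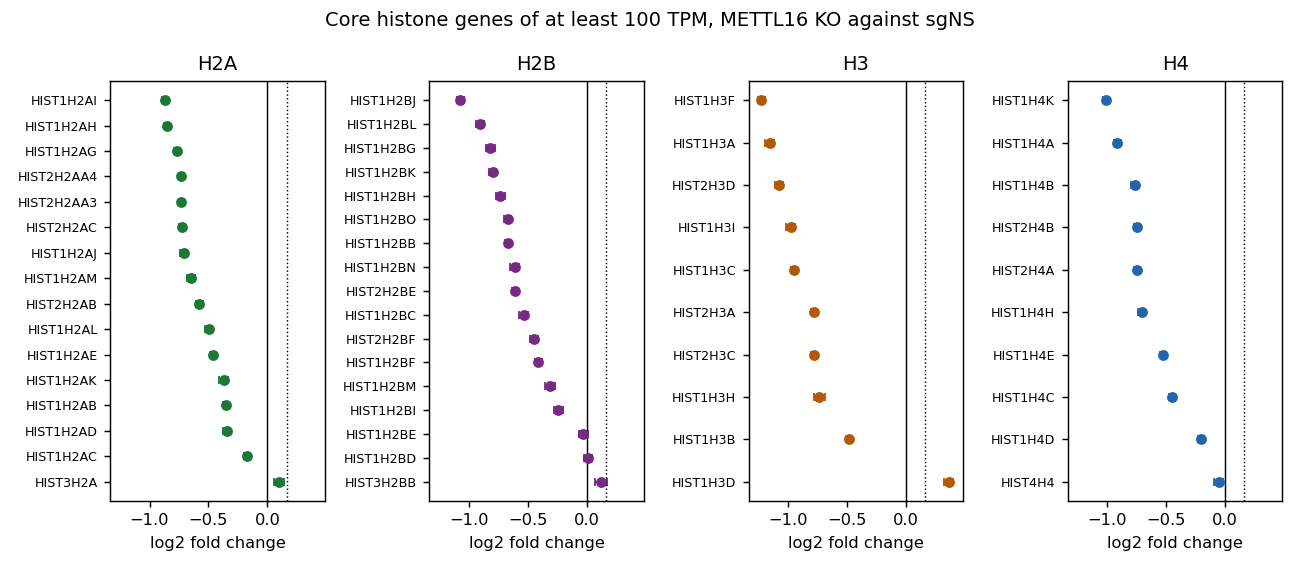
Log2 fold change on the log2(TPM + 0.1) scale in METTL16 KO against sgNS (horizontal axis, error bars are SE) of the 53 core histone genes with a mean of at least 100 TPM, ordered within each class. The solid line is 0 and the dotted line is the median of all genes tested, 0.16; values run from -1.22 for HIST1H3F to 0.37 for HIST1H3D, the one gene to the right of the dotted line.

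H2A genes are the outer partners of the nucleosome core, paired with H2B. HIST2H2AA3 and HIST2H2AA4, a duplicated pair on chromosome 1 with equal values in every library, were each listed at 4516 and 4423 TPM in sgNS and 2711 and 2681 TPM in METTL16 KO (log2 fold change -0.73, SE 0.023). Equal values show only that the quantification could not separate the copies, which hold 0 and 0.208% of 50-base stretches found in no other member. HIST2H2AC stood at 2840 and 2968 TPM in sgNS and 1742 and 1770 TPM in METTL16 KO, and HIST1H2AG at 2690 and 2698 TPM and 1570 and 1603 TPM.

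HIST1H2AI had the lowest fold change among H2A genes, with 2064 and 2079 TPM in sgNS and 1144 and 1121 TPM in METTL16 KO (log2 fold change -0.87, SE 0.025). Of its 50-base stretches 35.8% were its own, so the division of reads between it and other copies is uncertain. HIST1H2AE had 1668 and 1684 TPM in sgNS and 1225 and 1207 TPM in METTL16 KO, a smaller change of -0.46. HIST1H2AC, which is known to make transcripts with a poly(A) tail too, was measured at 1431 and 1411 TPM in sgNS and 1285 and 1238 TPM in METTL16 KO (log2 fold change -0.17, SE 0.028). Its groups did not overlap, but the change was the smallest of the H2A genes of the HIST1 cluster. HIST3H2A, the lone H2A gene of the HIST3 cluster, stood at 95.4 and 98.4 TPM in sgNS and 103.7 and 103.9 TPM in METTL16 KO, with a log2 fold change of 0.10 (SE 0.039) that turned to -0.066 with median-ratio scaling and to -0.029 with quantile normalization.

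H2B genes had no copies with equal values, and 63.4% to 100% of their 50-base stretches were their own. HIST1H2BC was the most abundant, with 2671 and 2944 TPM in sgNS and 1942 and 1937 TPM in METTL16 KO (log2 fold change -0.53, SE 0.038). HIST1H2BK, which also makes polyadenylated transcripts, had 2843 and 2858 TPM in sgNS and 1604 and 1680 TPM in METTL16 KO (log2 fold change -0.80, SE 0.027). Both were lower in METTL16 KO without overlap.

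HIST1H2BJ had the lowest fold change among H2B genes, with 1530 and 1583 TPM in sgNS and 741 and 742 TPM in METTL16 KO (log2 fold change -1.07, SE 0.028). HIST1H2BG was measured at 1638 and 1712 TPM in sgNS and 918 and 985 TPM in METTL16 KO, and HIST1H2BH at 1393 and 1519 TPM and 866 and 885 TPM. HIST1H2BB stood at 1396 and 1437 TPM in sgNS and 899 and 887 TPM in METTL16 KO. All 4 of these genes were lower in METTL16 KO without overlap.

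Of the other H2B genes, HIST1H2BD, HIST1H2BE and HIST3H2BB differed least between the groups. HIST1H2BD, a further gene with known polyadenylated transcripts, had 861 and 921 TPM in sgNS and 889 and 904 TPM in METTL16 KO (log2 fold change 0.0097, SE 0.034), and the groups overlapped. HIST1H2BE, named after its values were seen, was measured at 726 and 741 TPM in sgNS and 693 and 748 TPM in METTL16 KO and overlapped as well. HIST2H2BE, the fourth gene with known polyadenylated transcripts, stood at 738 and 754 TPM in sgNS and 484 and 495 TPM in METTL16 KO (log2 fold change -0.61, SE 0.029). The 4 genes known for polyadenylated transcripts therefore ranged from -0.80 to 0.0097. HIST3H2BB had 214 and 242 TPM in sgNS and 247 and 248 TPM in METTL16 KO, with a log2 fold change of 0.12 (SE 0.049) that turned to -0.045 with median-ratio scaling.

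Nearly all H3 genes encode 1 of 2 near-identical replicative proteins, H3.1 from the HIST1 cluster and H3.2 from the HIST2 cluster. The 10 H3.1 genes summed to 14543 and 14436 TPM in sgNS and 8518 and 8807 TPM in METTL16 KO, a log2 ratio of -0.74. The 3 H3.2 genes summed to 8315 and 7925 TPM in sgNS and 4523 and 4603 TPM in METTL16 KO, a log2 ratio of -0.83. Both sums were lower in METTL16 KO without overlap, and the difference between the ratios was not tested.

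HIST1H3B was the most abundant single member of the family, with 5741 and 5830 TPM in sgNS and 4093 and 4184 TPM in METTL16 KO (log2 fold change -0.48, SE 0.023). It made up 25.1% and 26.1% of the H3 sum in sgNS and 31.4% and 31.2% in METTL16 KO, so its share was higher while its level was lower. HIST1H3C was measured at 3862 and 3775 TPM in sgNS and 1949 and 2009 TPM in METTL16 KO, with a log2 fold change of -0.95. HIST1H3F had the lowest fold change of the members above 100 TPM, with 1735 and 1685 TPM in sgNS and 734 and 730 TPM in METTL16 KO (log2 fold change -1.22, SE 0.027), or 0.428 of its sgNS mean.

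In the HIST2 cluster the equal copies HIST2H3A and HIST2H3C were each listed at 3344 and 3198 TPM in sgNS and 1894 and 1922 TPM in METTL16 KO (log2 fold change -0.78, SE 0.027). HIST2H3D, the remaining H3.2 gene, stood at 1627 and 1530 TPM in sgNS and 735 and 760 TPM in METTL16 KO (log2 fold change -1.08, SE 0.034). HIST1H3D went the other way, with 207 and 209 TPM in sgNS and 259 and 278 TPM in METTL16 KO (log2 fold change 0.37, SE 0.039), and is named after its values were seen. The longer of its 2 RefSeq mRNAs begins at the start of HIST1H2AD on the same strand. HIST1H3G had 1.82 and 1.49 TPM in sgNS and 2.86 and 3.42 TPM in METTL16 KO, and HIST1H3J, named after its values were seen, at 4.87 and 4.77 TPM and 5.76 and 4.66 TPM. These are low-level copies that add almost nothing to the H3 sum.

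Most H4 genes encode the same protein. HIST1H4B was the most abundant, with 5517 and 5308 TPM in sgNS and 3146 and 3214 TPM in METTL16 KO (log2 fold change -0.77, SE 0.026). The equal copies HIST2H4A and HIST2H4B were each listed at 4798 and 4709 TPM in sgNS and 2826 and 2847 TPM in METTL16 KO (log2 fold change -0.74, SE 0.023). HIST1H4C was measured at 3520 and 3588 TPM in sgNS and 2586 and 2615 TPM in METTL16 KO, and HIST1H4E at 3036 and 2950 TPM and 2096 and 2056 TPM. In each of them the METTL16 KO libraries lay below the sgNS libraries.

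HIST1H4K stood at 4457 and 4425 TPM in sgNS and 2170 and 2255 TPM in METTL16 KO (log2 fold change -1.01, SE 0.026). HIST1H4J had 12.6 and 3.51 TPM in sgNS, and both libraries of METTL16 KO listed it at 0. These genes share nearly all of their transcript, with 6.29% of the 50-base stretches of each found in no other member, so how the reads were divided between them is uncertain. Their sum was 4469 and 4428 TPM in sgNS and 2170 and 2255 TPM in METTL16 KO, a log2 ratio of -1.01. HIST1H4I had the highest fold change of the class, at 3.39 and 4.57 TPM in sgNS and 6.33 and 4.74 TPM in METTL16 KO, and lies inside the span of HIST1H2BK on the opposite strand. HIST4H4, the single gene of the HIST4 cluster and named after its values were seen, had 667 and 720 TPM in sgNS and 663 and 672 TPM in METTL16 KO, and the groups overlapped.

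By cluster, the lower levels lay in HIST1 and HIST2. The 49 HIST1 genes on chromosome 6 summed to 68248 and 68544 TPM in sgNS and 43183 and 44126 TPM in METTL16 KO, a log2 ratio of -0.65. The 11 HIST2 genes on chromosome 1 (GRCh38, 149782689 to 149887965) summed to 31551 and 30990 TPM in sgNS and 18570 and 18681 TPM in METTL16 KO, a log2 ratio of -0.75. All 11 were lower at an adjusted p under 0.05 (limma), beside 25.6% of all genes. They include pairs of copies with equal values, and the contrast chose the family, so nothing is read from this count. The sums of HIST1 and of HIST2 did not overlap between the groups.

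The 3 HIST3 genes, also on chromosome 1 (228424845 to 228458558), summed to 310.2 and 340 TPM in sgNS and 351 and 352 TPM in METTL16 KO, a log2 ratio of 0.11 that turned to -0.054 with median-ratio scaling. HIST4H4 on chromosome 12 (14770720 to 14771131) gave a log2 ratio of -0.055. HIST3 and HIST4 together made up under 2% of the core histone sum: 0.308% and 0.338% for HIST3 and 0.662% and 0.716% for HIST4 in sgNS, and 0.559% and 0.551% for HIST3 and 1.06% and 1.05% for HIST4 in METTL16 KO.

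Within HIST1 the genes fell into 3 blocks along chromosome 6. The first (25726063 to 26285534, 29 members) summed to 46031 and 46268 TPM in sgNS and 30743 and 31268 TPM in METTL16 KO, a log2 ratio of -0.57. The second (27132316 to 27147562, 5 members) summed to 8519 and 8620 TPM in sgNS and 4727 and 4844 TPM in METTL16 KO, a log2 ratio of -0.84. The third (27807479 to 27893891, 15 members) summed to 13698 and 13656 TPM in sgNS and 7712 and 8014 TPM in METTL16 KO, a log2 ratio of -0.80. The first block held both large and small changes. HIST1H3A had 1360 and 1377 TPM in sgNS and 591 and 640 TPM in METTL16 KO, while HIST1H2BD and HIST1H2BE, which overlapped between the groups, lie next to each other further along the block.

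**Figure D3:**
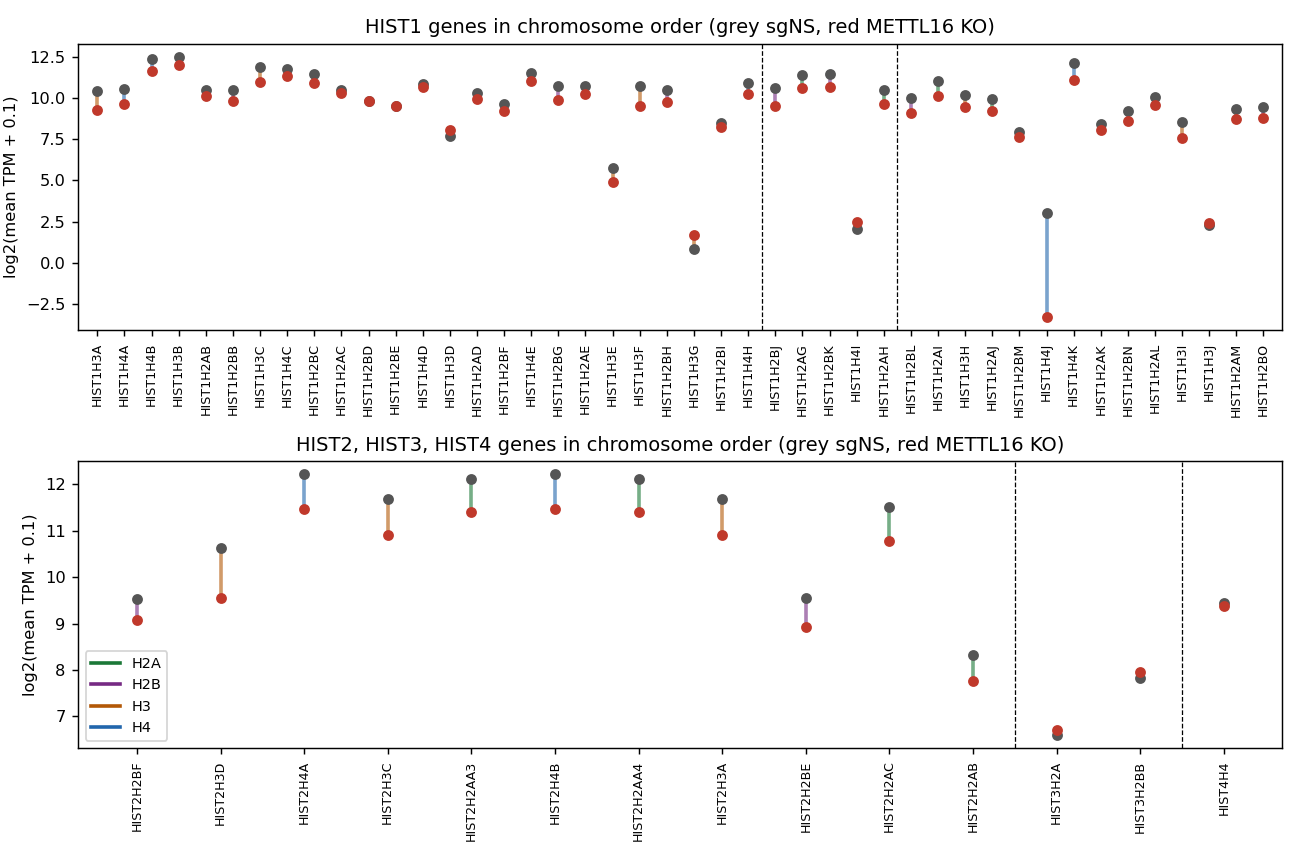
Mean level on the log2(mean TPM + 0.1) scale of each tested core histone gene in sgNS (grey) and METTL16 KO (red), in the order of the genes along the chromosome; the colour of the joining line gives the class and dashed lines part the 3 blocks of HIST1 (upper panel) and the HIST2, HIST3 and HIST4 clusters (lower panel). The red point lies below the grey one in all 11 HIST2 genes and above it in both HIST3 genes.

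Many H2A and H2B genes lie head to head and share the stretch between their starts. Among the 59 members with a promoter entry 11 such pairs were found, with starts 194 to 248 bases apart. Of these pairs 10 had both genes in the fit. The 5 members without an entry could not be searched, so the count can be incomplete. HIST1H2AH, which lies next to the start of HIST1H2BK, is 1 of them. In 9 of the 10 both partners were lower in METTL16 KO, and in the HIST3 pair both were slightly higher on the TPM scale. At an adjusted p under 0.05 (limma) 49 of the 58 tested members and 25.6% of all genes were lower. The contrast chose the family, so nothing is read from the count of pairs. The change was not always shared evenly: it was -0.17 for HIST1H2AC and -0.53 for HIST1H2BC, -0.46 for HIST1H2AE and -0.82 for HIST1H2BG, and -0.71 for HIST1H2AJ and -0.31 for HIST1H2BM. It was nearly equal for HIST1H2AM (-0.65) and HIST1H2BO (-0.67).

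**Figure D4:**
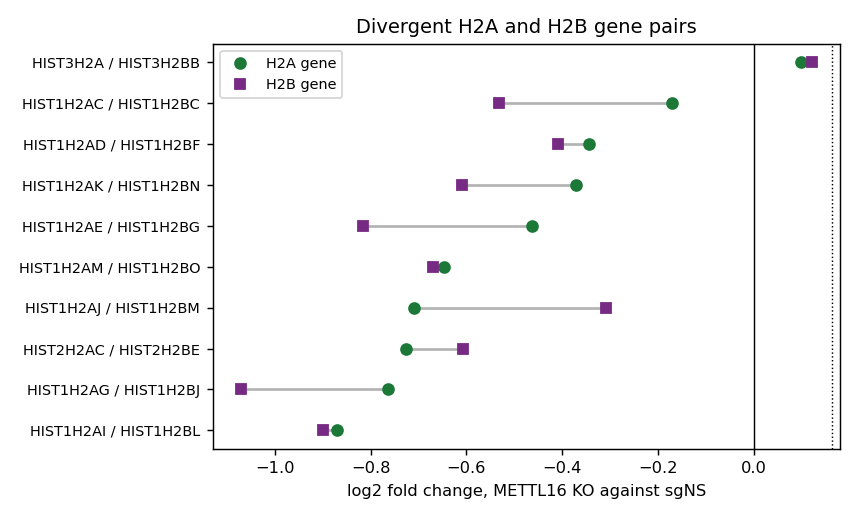
Log2 fold change in METTL16 KO against sgNS (horizontal axis) of the H2A gene (circle) and the H2B gene (square) of head-to-head pairs. Shown are the 10 pairs found among members with a promoter entry that had both genes in the fit. The solid line is 0 and the dotted line is the median of all genes, 0.16. HIST1H2BJ at -1.07 is the lowest point, and HIST3H2A and HIST3H2BB at 0.10 and 0.12 are the highest.

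Promoter letters were counted in the 300 bases around the start (250 before, 50 after) of the 59 members in the RefSeq table (GRCh38.p14), on both strands, beside all 27305 genes of the table. TATAAA, the TATA box, was found in 67.8% of members and 14.0% of all genes. CCAAT, the box bound by NF-Y, was found in 83.1% of members and 39.7% of all genes, and in 100% of the H2A, H2B and H3 genes but 23.1% of the H4 genes. ATTTGCAT, the octamer bound by POU2F1 (Oct-1), was found in 77.8% of H2B genes, 68.8% of H2A genes and 2.19% of all genes, but in 0 of 12 H3 and 0 of 13 H4 genes. Since the head-to-head genes share their promoters, an octamer can be counted for both partners.

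The stretches between the starts of the pairs with the lowest H2B value and with the highest values are shown for comparison, read from the H2A gene to the H2B gene, with the 3 motifs of either strand in capitals.
HIST1H2AG to HIST1H2BJ, chr6:27132796-27133042, minus strand: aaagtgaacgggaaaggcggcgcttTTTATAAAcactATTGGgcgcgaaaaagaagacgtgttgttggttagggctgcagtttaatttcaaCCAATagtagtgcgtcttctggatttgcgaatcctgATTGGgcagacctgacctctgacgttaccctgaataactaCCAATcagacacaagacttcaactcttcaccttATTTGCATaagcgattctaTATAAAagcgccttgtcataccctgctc
HIST3H2A to HIST3H2BB, chr1:228457874-228458102, plus strand: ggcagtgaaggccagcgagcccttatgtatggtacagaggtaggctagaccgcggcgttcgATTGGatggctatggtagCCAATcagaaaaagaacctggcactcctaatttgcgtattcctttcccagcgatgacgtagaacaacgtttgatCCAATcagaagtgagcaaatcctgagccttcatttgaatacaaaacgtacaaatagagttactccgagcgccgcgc

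The first stretch, of 247 bases, held 3 TATAAA, 4 CCAAT and 1 ATTTGCAT. Its TTTATAAA was counted on each strand, so these TATAAA matches overlap. The second, of 229 bases, held 3 CCAAT and neither of the other motifs. The stretch of HIST1H2AK and HIST1H2BN, of 193 bases, held the same counts as the second, and those genes were lower (-0.37 and -0.61). The stretch of HIST1H2AI and HIST1H2BL also had 0 ATTTGCAT, at -0.87 and -0.90. A match of letters is a description and not a binding site. The octamer was present in H2B genes with large and with small differences, as these windows of 30 bases around it show.
HIST1H2BJ (log2 fold change -1.07), chr6:27132824-27132853, minus strand: ctcttcaccttATTTGCATaagcgattcta
HIST1H2BK (-0.80), chr6:27146886-27146915, minus strand: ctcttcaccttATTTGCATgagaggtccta
HIST2H2BE (-0.61), chr1:149886710-149886739, minus strand: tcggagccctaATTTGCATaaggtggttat
HIST1H2BE (-0.027), chr6:26183642-26183671, plus strand: taagctccttcATTTGCATgcagacttcac

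Beyond the core histones, the other genes of histone supply were counted at an adjusted p under 0.05 in the same fit (limma). These lists were written with results of these libraries known and are descriptions, and each count is to be read against the 25.6% of all genes that were lower and the 50.1% that were higher. Of the 7 linker histones tested, which bind the DNA between nucleosomes, 6 were lower and 1 higher, with a median log2 fold change of -0.87, beside 0.16 for all genes. HIST1H1A, a replication-dependent linker histone, was measured at 1089 and 1115 TPM in sgNS and 567 and 576 TPM in METTL16 KO (log2 fold change -0.95, SE 0.028, adjusted p = 4.01e-10), and HIST1H1D at 276 and 271 TPM and 147 and 149 TPM. H1FX, a linker histone outside the clusters, was lower by -0.49 (SE 0.036, adjusted p = 3.92e-07). H1F0, a replacement linker histone of resting and differentiated cells, rose from 342 and 340 TPM to 438 and 446 TPM (log2 fold change 0.38, SE 0.030, adjusted p = 7.65e-07). The replication-dependent linker genes thus lay on the side of the core genes and H1F0 on the other.

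Of the 9 replacement core histones tested, which are made outside S phase as well, 6 were lower and 2 higher, with a median of -0.17, beside 25.6% lower and 50.1% higher of all genes, and with median-ratio scaling 7 were lower and 1 higher, where all genes stood at 4375 lower and 4359 higher of 11971. H2AFX, the H2A variant phosphorylated at DNA breaks, was lower (log2 fold change -0.51, SE 0.035, adjusted p = 2.79e-07), and H3F3A, an H3.3 gene, stood at 789 and 841 TPM in sgNS and 650 TPM in both METTL16 KO libraries (log2 fold change -0.33, adjusted p = 5.5e-06). H2AFJ, an H2A variant, rose from 14.3 and 13.5 TPM to 39.0 and 37.3 TPM (log2 fold change 1.45, SE 0.060, adjusted p = 4.89e-09). H2AFY, which encodes macroH2A1, had a log2 fold change of 0.12 (adjusted p = 0.0122) that turned to -0.042 with median-ratio scaling.

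Of the 15 genes of the histone locus body and of histone pre-mRNA processing, 2 were lower, 6 higher and 7 neither (median 0.084), beside 25.6% lower and 50.1% higher of all genes. With median-ratio scaling 6 of these 15 were lower and 4 higher, where all genes stood at 4375 lower and 4359 higher of 11971. SLBP had 85.1 and 84.8 TPM in sgNS and 88.1 and 91.4 TPM in METTL16 KO, with a log2 fold change of 0.079 (SE 0.041, adjusted p = 0.0982) that turned to -0.086 with median-ratio scaling and to -0.069 with quantile normalization. NPAT, the coactivator of histone transcription, had a log2 fold change of 0.22 (SE 0.072, adjusted p = 0.0179), a call that was lost with median-ratio scaling (adjusted p = 0.524), quantile normalization (0.686), rescaling without HIST genes (0.0785) and no filter (0.0533), and without sgNS replicate 1 (0.08) or METTL16 KO replicate 1 (0.185). Neither of them was therefore lower on the TPM scale. ZNF473, a zinc finger protein of the U7 processing machinery, rose from 14.2 and 13.8 TPM to 30.6 and 31.6 TPM (log2 fold change 1.15, SE 0.059, adjusted p = 2.64e-08). UPF1, a helicase that takes part in histone mRNA decay, rose by 0.52 on the log2 scale (adjusted p = 9.3e-07). SYMPK, the scaffold of the cleavage complex, was measured at 43.4 and 35.8 TPM in sgNS and 26.5 and 25.3 TPM in METTL16 KO (log2 fold change -0.61, SE 0.080, adjusted p = 4e-05). POU2F1, the octamer-binding factor, had a log2 fold change of -0.17 (adjusted p = 0.0265), a call that was lost without sgNS replicate 1 (adjusted p = 0.109), without METTL16 KO replicate 1 (0.0905) and without METTL16 KO replicate 2 (0.142).

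Of the 13 histone chaperones tested, 8 were lower and 1 higher (median -0.14), beside 25.6% lower and 50.1% higher of all genes. With median-ratio scaling 11 chaperones were lower and 0 higher, where all genes stood at 4375 lower and 4359 higher of 11971. CHAF1B, a subunit of the CAF-1 complex that deposits H3 and H4 on new DNA, stood at 28.9 and 26.3 TPM in sgNS and 16.7 and 15.3 TPM in METTL16 KO (log2 fold change -0.78, SE 0.070, adjusted p = 1.96e-06), and RBBP7, a histone-binding protein, had a log2 fold change of -0.78 too (adjusted p = 2.14e-08). ASF1B, which hands H3 and H4 to CAF-1, had a log2 fold change of 0.11 (adjusted p = 0.043) that turned to -0.051 with median-ratio scaling and to -0.018 with quantile normalization, and HAT1, which acetylates new H4, one of 0.076 (adjusted p = 0.0879) that turned to -0.089 and -0.0018 with the same scalings.

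Of the 26 DNA replication genes, 14 were lower, 7 higher and 5 neither (median -0.19), beside 25.6% lower and 50.1% higher of all genes. With median-ratio scaling 18 of these 26 were lower and 2 higher, where all genes stood at 4375 lower and 4359 higher of 11971. MCM6 and MCM4, subunits of the replicative helicase, had log2 fold changes of -0.97 (adjusted p = 1.49e-08) and -0.87 (adjusted p = 1.17e-08), and PCNA, the sliding clamp, had 498 and 507 TPM in sgNS and 358 and 365 TPM in METTL16 KO (log2 fold change -0.48, SE 0.030, adjusted p = 1.28e-07). MCM3, a further helicase subunit, rose by 0.39 on the log2 scale (adjusted p = 2.14e-06), and CCNE2, a cyclin of the entry into S phase, rose by 1.10 on the log2 scale (SE 0.115, adjusted p = 6.74e-06).

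Of the 12 mitosis and proliferation genes, 2 were lower, 5 higher and 5 neither (median 0.055), beside 25.6% lower and 50.1% higher of all genes. With median-ratio scaling 8 of these 12 were lower and 4 higher, where all genes stood at 4375 lower and 4359 higher of 11971. BUB1 and AURKB, kinases of the spindle checkpoint and of chromosome segregation, had log2 fold changes of -0.28 (adjusted p = 0.000915) and -0.27 (adjusted p = 3.89e-05). CENPE and CENPF, proteins of the kinetochore, rose by 0.81 (adjusted p = 1.14e-06) and 0.52 (adjusted p = 2.24e-05) on the log2 scale. MKI67, the proliferation marker Ki-67, was listed at 28.9 TPM in both sgNS libraries and 28.0 and 24.8 TPM in METTL16 KO (log2 fold change -0.13, adjusted p = 0.082), and passed the threshold with median-ratio scaling (log2 fold change -0.30, adjusted p = 0.0017). The part of these shifts in the histone values was not tested.

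**Figure D5:**
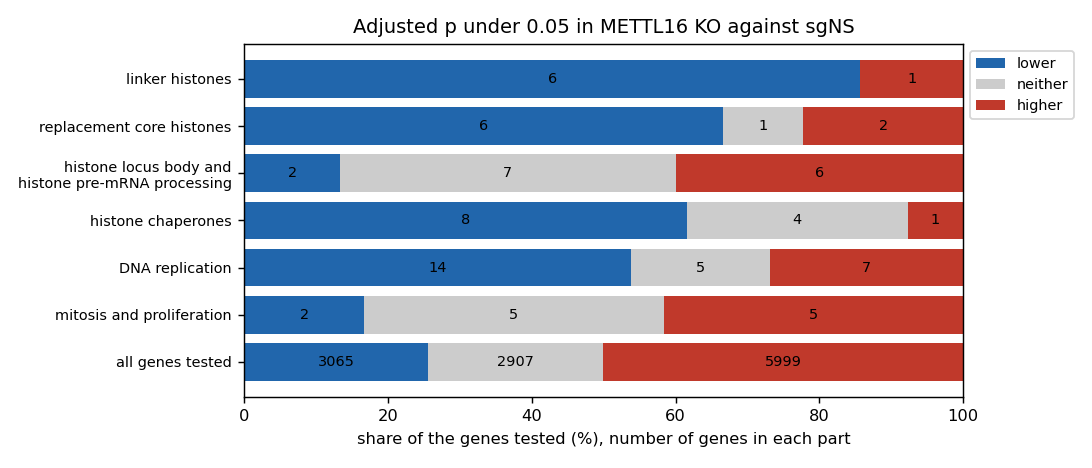
Share (horizontal axis, percent) of the tested genes of each list and of all 11971 genes that were lower (blue), higher (red) or neither (grey) in METTL16 KO at an adjusted p under 0.05, with the number of genes written in each part. Linker histones (6 lower, 1 higher) and DNA replication genes (14 lower, 7 higher) contrast with all genes (3065 lower, 5999 higher).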

How the data were processed

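RNA-seq of Huh7 cells was analysed in 2 biological replicates of sgNS and 2 of METTL16 KO. Before deposit, the authors used Cutadapt for trimming, STAR for mapping to GRCh38 and RSEM for quantification (versions and annotation not given in the sources used here). The paper calls the unit RPKM, but the deposited values, given to 2 decimals, sum to 1000000 in each library and were therefore treated as TPM. TPM keeps no read counts, so depth and counting error are unknown and no test for counts was run.

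Members were found by symbol and their TPM summed by class and by cluster, as near-identical copies share reads. The members, the lists of other genes and the markers were chosen with earlier results of these data known. Genes with a mean of at least 1 TPM (11971) were fitted on log2(TPM + 0.1), a scale that understates the change of low genes, with limma 3.58.1 in R 4.3.3 (lmFit, eBayes with trend, no block). With 2 libraries against 2, an exact permutation test of 1 gene cannot give a p under 0.33, so p-values rest on a spread shared across genes. On data simulated with normal noise, all 200 genes changed by 1.5 on the log2 scale were recovered at the study's thresholds, with 0 unchanged genes called. Calls by adjusted p, smaller changes and a shift of most genes were not simulated, so this says nothing about them. The genes named were the 6 most abundant and the lowest and highest fold change of each class, genes at 0 in 1 group, equal copies, 4 genes known for polyadenylated transcripts, METTL16, the 2 lowest and 2 highest of each list, and SLBP, NPAT, PCNA and MKI67; others are said to be named after their values were seen or stand for a pair or a block.

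Positions, starts and promoters came from RefSeq (GRCh38.p14), in which all 64 members were matched and 59 had a promoter entry, and hairpins from the GRCh38 sequence, with Python 3.11.15, pysam 0.24.0, pandas 2.3.3 and numpy 2.4.6. The transcript of a member from its start to its hairpin was split into 50-base stretches, and those found in no other of the 59 members were counted. Figures were drawn with matplotlib 3.10.9. The alternatives were other pseudocounts, filters and scalings, a replicate block, limma without trend, sums without the most abundant copy, and each library left out in turn.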

Additional observations from a re-analysis of the deposited data

How the results depend on the processing

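Depth is unknown, since TPM holds no counts, and 2 libraries per group, 1 Cas9 clone and 1 guide limit what the spread covers. Leaving out each library in turn kept the log2 ratio of the core histone sum between -0.68 and -0.66. It moved the number of members higher at an adjusted p to 2 to 5, replacement histones higher to 1 to 2, processing genes lower to 1 to 3, chaperones higher to 0 to 2, and DNA replication genes higher to 3 to 6; members lower stayed at 49 to 50. Same-numbered libraries did not deviate together (correlation -0.044 over the genes tested). With 2 libraries per group this cannot show whether they were prepared in pairs. With a replicate block 49 members were lower and 4 higher, 3112 genes lower and 6048 higher, and the log2 fold change of METTL16 was -0.50.

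The scalings moved the sums; the cause was not tested. With median-ratio scaling the log2 ratios were -0.84 (all core histones), -0.80 (H2A), -0.77 (H2B), -0.94 (H3), -0.84 (H4), -0.81 (HIST1), -0.91 (HIST2) and -0.22 (HIST4), and HIST3 turned to -0.054. Rescaled without HIST genes they were -0.74, -0.70, -0.67, -0.84 and -0.74 for all core histones, H2A, H2B, H3 and H4, -0.71 for HIST1 and -0.81 for HIST2. With quantile normalization they were -0.48, -0.45, -0.51, -0.61, -0.39, -0.48 and -0.49 in the same order. Without the most abundant copy H2A gave -0.61 and H3 -0.89; HIST4 holds 1 gene and could not be so treated.

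Members lower past the study's thresholds numbered 13 with median-ratio scaling, where 655 of all 11971 genes were lower and 670 higher. Members higher at an adjusted p numbered 3 with no filter, with a minimum mean of 5 TPM and without HIST genes, and 2 with median-ratio scaling, quantile normalization and limma without trend. Of all genes, 1390 were higher past the study's thresholds with no filter and 575 with a minimum mean of 5 TPM; with quantile normalization 680 were lower and 594 higher. Linker histones higher numbered 2 with no filter. Chaperones higher numbered 0 with no filter, the 3 scalings and limma without trend. Replacement histones higher numbered 1 with the 3 scalings and limma without trend. DNA replication genes higher numbered 2, 3 and 2 after median-ratio scaling, without HIST genes and after quantile normalization, and 4 with limma without trend. Mitosis genes lower numbered 8, 4 and 5 with the same 3 scalings, and processing genes lower 6 and 5 with the first and the last of them. At an adjusted p under 0.05, all 11971 genes stood at 4375 lower and 4359 higher with median-ratio scaling. The counts were 3548 and 5331 without HIST genes and 4238 and 4436 with quantile normalization.

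Single genes that changed sign were ASF1B (-0.051 and -0.018), HAT1 (-0.089 and -0.0018), SLBP (-0.086 and -0.069) and HIST3H2A (-0.066 and -0.029) with median-ratio and with quantile scaling, and H2AFY (-0.042) and HIST3H2BB (-0.045) with median-ratio scaling.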
